A study of Homo sapiens with 24 samples.

Results

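The NF-kB chemokines and feedback genes described here are CXCL1, CXCL2, CXCL3, CXCL8, CCL20, IL6, NFKBIA, TNFAIP3, BIRC3 and RELB, 10 of the 26645 gene entries of the count table, taken by their symbols. Poly(A) RNA of 8 groups was sequenced, with 3 libraries in each and 24 in all. The parental line MDA-MB-468 (MB468), a human triple-negative breast cancer line that does not proliferate when Met (methionine) is replaced by its precursor Hcy (homocysteine), was sampled in Met+ medium at 0 h and after 0.5, 2 and 12 h in Met-Hcy+ medium. MB468res-R8, the Met-independent derivative, was sampled in the same 4 states. MB468res-R8 is a single revertant clone raised from MB468 by prolonged culture in Hcy medium, so a difference between the lines is a difference between 1 clone and its parent. All cells grew in the same base medium with dialyzed serum, and Met+ medium held no Hcy. No library came from cells moved into fresh Met+ medium, so loss of Met, the arrival of Hcy, the change of medium itself and time in culture cannot be told apart.

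NF-kB is a family of dimeric transcription factors held in the cytoplasm by inhibitor proteins of the IkB type. Signals from cytokine receptors, pattern receptors or cell stress activate the IKK kinase, the inhibitor is degraded, and the freed dimer enters the nucleus and binds short kappa-B sites near its target genes. Those targets include secreted chemokines and cytokines that recruit and instruct other cells, and also the pathway's own brakes, NFKBIA and TNFAIP3, which shorten the response. In epithelial tumour cells this output can be read without any immune cell being present.

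The libraries held 11745553 to 36496655 counts, with a median of 20503827. Values are counts scaled by TMM, a normalisation that takes most genes as equal between libraries, to a common library size of 22748285, and are called normalised counts. A gene was called higher or lower when the quasi-likelihood test of edgeR, run over 14741 genes, gave a Benjamini-Hochberg adjusted p below 0.05. Differences are on the log2 scale with their standard errors (SE), and group levels are means ± SD of 3 libraries. The labels number the libraries of a group as replicates without naming separate cultures, so the p-values measure the spread between these libraries, which may be technical. In bulk RNA, fewer cells that express a gene and less RNA of it per cell cannot be told apart. Epithelial and basal markers were high in all 24 libraries (EPCAM from 286 to 437 CPM and KRT5 from 1540 to 2783 CPM, where CPM is the count relative to the library's total). PGR, the progesterone receptor, did not exceed 0.0983 CPM, and of the immune markers PTPRC, CD3E and LYZ none exceeded 7 counts in a library. Other markers that might be taken as absent from such a line had reads: CD14 ranged from 21.2 to 159 CPM, CD68, of macrophages, from 2.85 to 10.02 CPM, and the fibroblast collagen gene COL1A1 from 14.6 to 73.2 CPM. The receptor genes ESR1 (4.15 to 22.6 CPM) and ERBB2 (38.3 to 97.3 CPM), whose proteins are scored as negative in a triple-negative line, were also detected. MB468 2 h replicate 2 stood apart in RN7SK, a small nuclear RNA, with 8251 counts against 44 to 357 in the other libraries. Without it, 8 members were still called in MB468 at 2 h.

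The stretches of promoter shown here carry a DNA feature common to the 9 members whose promoter could be searched. It is a kappa-B match close to the start site, which their selection did not use in these data. Of the 10 members, 9 had a promoter in the RefSeq table (GRCh38.p14, 250 bases before to 50 after each start site). RELB was not among them. A 10-base kappa-B consensus, searched on both strands, was found in 8 of these 9 promoters and in 7.409% of all 27305 promoters of the same length. The 9-letter core GGAATTTCC, which overlaps that consensus where both occur, was found in 5 of the 9 and in 0.4724% of all promoters. Every one of the 9 held one or the other, against 7.695%. CXCL8 held the core alone, so that all 9 had a match rests on counting the core too. The core matches include those of CXCL1, CXCL2 and CXCL3, which are close copies. These genes are textbook targets of the pathway, so the share is a description of how they are known. Capitals mark the matches, and each stretch is written 5′ to 3′ along the gene's strand.
CXCL2: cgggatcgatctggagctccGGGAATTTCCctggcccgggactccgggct
CXCL3: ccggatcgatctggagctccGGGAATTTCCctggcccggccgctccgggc
CXCL1: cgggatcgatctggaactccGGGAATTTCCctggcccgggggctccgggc
CXCL8: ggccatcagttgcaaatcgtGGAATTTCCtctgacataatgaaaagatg
CCL20: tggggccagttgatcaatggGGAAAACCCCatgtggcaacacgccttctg
IL6: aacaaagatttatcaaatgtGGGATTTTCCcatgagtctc
NFKBIA: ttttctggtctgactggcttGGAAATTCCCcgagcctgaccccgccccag
TNFAIP3: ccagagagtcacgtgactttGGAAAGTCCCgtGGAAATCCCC
BIRC3: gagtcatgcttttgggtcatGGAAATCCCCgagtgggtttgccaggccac

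In CXCL1, CXCL2, CXCL3, CXCL8 and IL6 the match read along the gene's strand, and in CCL20, NFKBIA, TNFAIP3 and BIRC3 it read on the opposite strand. TNFAIP3 held 2 matches. The match farthest from the start site began between 67 and 91 bases before it in 8 genes and 199 bases before it in BIRC3, and the second match of TNFAIP3 began 55 bases before it. The stretches of CXCL2 (chr4:74099244-74099293, minus strand), CXCL3 (chr4:74038739-74038788, minus strand) and CXCL1 (chr4:73869294-73869343, plus strand) were close copies. Aligned on the match over 50 bases, CXCL1 and CXCL3 agreed at 46, CXCL1 and CXCL2 at 42, and CXCL2 and CXCL3 at 41. The other stretches were at chr4:73740458-73740506 (CXCL8, plus), chr2:227813743-227813792 (CCL20, plus), chr7:22727107-22727146 (IL6, plus), chr14:35404801-35404850 (NFKBIA, minus), chr6:137867172-137867213 (TNFAIP3, plus) and chr11:102317265-102317314 (BIRC3, plus). In the GENCODE annotation the stretches of CXCL2, CXCL8, CXCL1 and NFKBIA lay between genes. That of CXCL3 lay in an exon of a longer transcript of the gene with no defined coding sequence, and those of CCL20 and IL6 lay in an intron of longer transcripts. The stretches of IL6, TNFAIP3 and BIRC3 also lay in introns of genes on the opposite strand.

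After the switch to Met-Hcy+ medium the members split in direction at 0.5 h. At 0.5 h, CXCL2, IL6, NFKBIA and TNFAIP3 rose in both lines, and CCL20, BIRC3 and RELB fell in both. At 2 h, 8 of the 9 members tested were higher than at 0 h in MB468, whereas 3 were higher and 1 was lower in MB468res-R8. At 12 h, 4 were higher and 1 was lower in MB468, and 8 were lower and none was higher in MB468res-R8. CXCL1 had too few counts to be tested, so each count is over 9 genes. Of the 8 falls at 12 h in MB468res-R8, those of CXCL2 (-0.63, adjusted p = 0.0411), CXCL8 (-0.49, adjusted p = 0.0468) and NFKBIA were slight, and with any 1 library of the groups compared left out, 5 to 7 members were called. With DESeq2, another count test, 6 were lower there, since CXCL2 (adjusted p = 0.0575) and NFKBIA (adjusted p = 0.0702) were not called. Scaling libraries by their spike-in RNA takes no gene as equal, but takes the input of spike-in RNA as equal between libraries. The spike-in share was 0.201% to 0.303% of counts, and within MB468res-R8 at 0.5 h it was 0.214% to 0.288%. With that scaling, no member was higher and 2 were lower in MB468 at 12 h, and 6 were lower in MB468res-R8. Under that scaling 2 were higher and 4 lower at 0.5 h and 6 were higher and 1 lower at 2 h in MB468, where NFKBIA and TNFAIP3 were not called at 0.5 h (adjusted p = 0.489 and 0.106). In MB468res-R8 4 were higher and 3 lower at 0.5 h, and 2 were higher and none lower at 2 h. With no low-count filter, 5 members were higher and 1 lower in MB468res-R8 at 2 h, where 473 of 21284 genes were higher. With only the groups compared, 4 were higher and 1 lower there, where 310 of 13886 genes were higher. At 0.5 h each of these settings gave 5 higher and 3 lower.

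These counts were read against all genes tested. In MB468 at 0.5 h, 4 members were higher and 4 lower, where 17.6% of all genes were called higher and 16.4% lower. In MB468res-R8 at 0.5 h, 4 were higher and 3 lower, against 17.4% and 16.3%. At 2 h the 8 higher members of MB468 stood against 8.88% of all genes called higher and 7.47% called lower, and the 3 higher and 1 lower of MB468res-R8 against 2.52% and 1.85%. At 12 h most genes had moved: 36.1% were higher and 34.7% lower in MB468, and 30.2% and 31.1% in MB468res-R8. With spike-in scaling the split of all genes turned mostly downward in MB468, to 3.11% higher and 19.2% lower at 0.5 h, 1.63% and 62.9% at 2 h, and 17.2% and 40.2% at 12 h. In MB468res-R8 that split was 8.1% higher and 5.62% lower at 0.5 h, 0.78% and 0.441% at 2 h, and 18.8% and 21.2% at 12 h. The median log2 difference of the 9 members at 2 h was 1.11 in MB468 and 0.35 in MB468res-R8, with medians of all genes of 0.01 and 0.00. At 12 h it was -0.01 in MB468 and -1.09 in MB468res-R8, with medians of all genes of 0.01 and -0.02. The 3 responses of a line share the same 0 h libraries and are not independent of each other.

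**Figure D1:**
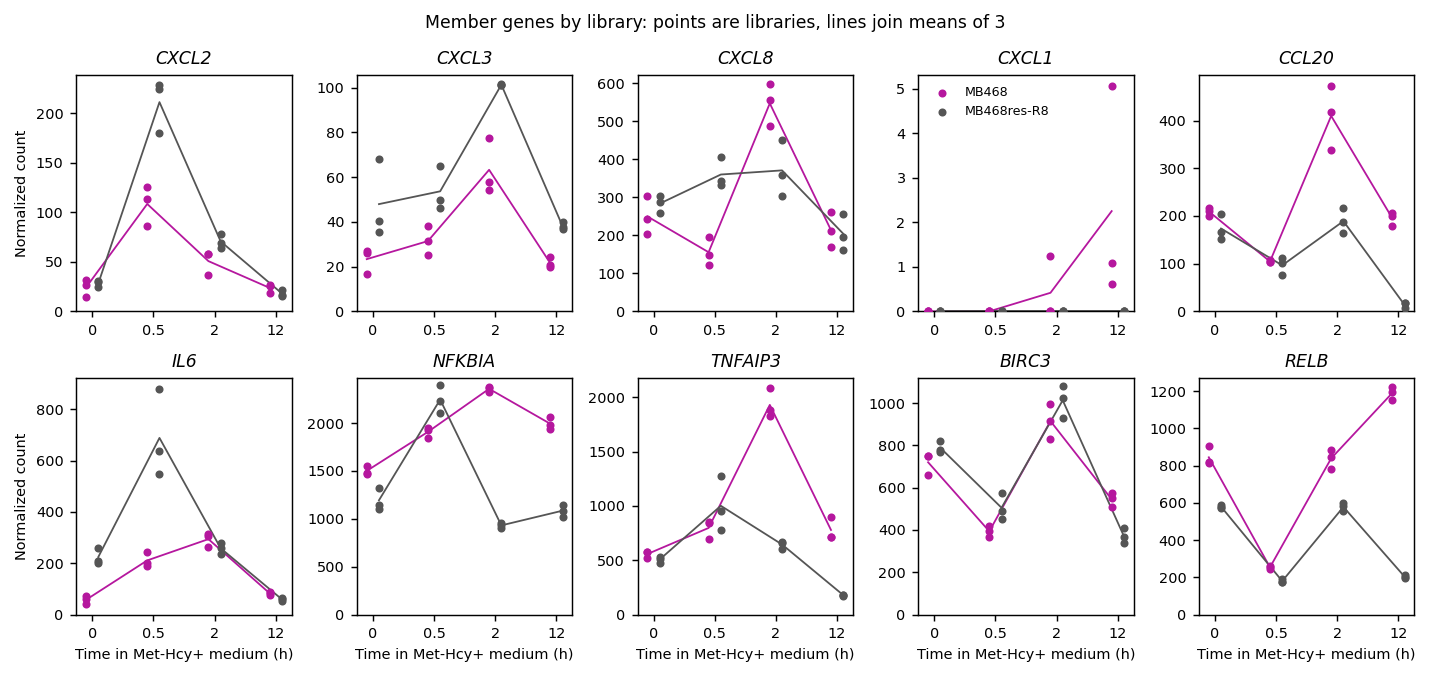
Normalised counts (vertical axis, linear, a separate scale for each gene) against time in Met-Hcy+ medium (0, 0.5, 2 and 12 h, evenly spaced) for the 10 members. Points are single libraries, lines join the means of 3 libraries, and MB468 is magenta and MB468res-R8 grey; CXCL2 peaks at 0.5 h in both lines, and TNFAIP3 and CCL20 peak at 2 h in MB468.

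CXCL2, CXCL3, CXCL8 and CXCL1 encode chemokines that attract neutrophils through the receptor CXCR2 and, chiefly for CXCL8, CXCR1. Their genes lie in a cluster on chromosome 4. CXCL2 (chr4:74097040-74099196, minus strand, GRCh38) peaked at 0.5 h in both lines. In MB468 its normalised counts were 31.4, 14.3 and 26.7 at 0 h, 114, 125 and 86.6 at 0.5 h, 57.7, 36.9 and 57.6 at 2 h, and 26.3, 25.9 and 19.0 at 12 h. In MB468res-R8 they were 29.3, 30.2 and 24.8 at 0 h, 229, 225 and 181 at 0.5 h, 69.3, 64.1 and 78.5 at 2 h, and 21.5, 15.9 and 17.0 at 12 h. Every library at 0.5 h was above every library of the same line at the other times. CXCL2 rose 4.64-fold at 0.5 h in MB468 (log2 difference 2.21, SE 0.22, adjusted p = 1.04e-10) and 7.45-fold in MB468res-R8 (2.90, SE 0.21, adjusted p = 9.03e-15). By 2 h it had dropped from its level at 0.5 h in both lines, by 1.09 in MB468 (adjusted p = 6.02e-05) and by 1.60 in MB468res-R8 (adjusted p = 2.99e-09), and was still 2.18-fold and 2.46-fold above 0 h. The rise at 0.5 h was 0.68 larger in MB468res-R8 on the log2 scale (SE 0.32, adjusted p = 0.338), a difference that was not called. The thinnest CXCL2 value, in MB468res-R8 at 12 h, rests on 14 counts.

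CXCL3 (chr4:74036589-74038807, minus strand) peaked later than CXCL2. Its normalised counts in MB468 were 26.0, 27.1 and 16.9 at 0 h, 37.9, 31.3 and 25.01 at 0.5 h, 57.7, 54.4 and 77.6 at 2 h, and 24.4, 20.5 and 19.6 at 12 h. Those of MB468res-R8 were 68.2, 40.3 and 35.3 at 0 h, 46.2, 49.6 and 65.1 at 0.5 h, 101.3, 101.6 and 100.9 at 2 h, and 36.7, 39.9 and 37.8 at 12 h. The libraries at 2 h were above all others of their line, and the libraries at 0 and 0.5 h overlapped. CXCL3 rose 2.66-fold at 2 h in MB468 (1.41, SE 0.25, adjusted p = 3.77e-05) and 2.06-fold in MB468res-R8 (1.04, SE 0.21, adjusted p = 0.00109). It was not called at 0.5 h, with log2 differences of 0.44 and 0.11, or at 12 h, with -0.15 and -0.37. CXCL3 was also higher in MB468res-R8 than in MB468 before the switch, by 1.03 (SE 0.25, adjusted p = 0.000473).

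CXCL8 (chr4:73740519-73743716, plus strand), also called interleukin 8, was the most abundant of the neutrophil chemokines per length of exon, at 4.24 CPM per kb in MB468 and 4.82 CPM per kb in MB468res-R8 at 0 h. CXCL2 stood at 0.759 and 0.885 CPM per kb and CXCL3 at 0.462 and 0.949. In MB468 the CXCL8 counts were 242, 304 and 204 at 0 h, 147, 197 and 123 at 0.5 h, 487, 556 and 600 at 2 h, and 211, 262 and 169 at 12 h. They dropped at 0.5 h below every library at 0 h and rose at 2 h above all of them. MB468res-R8 had 304, 260 and 288 at 0 h, 406, 344 and 332 at 0.5 h, 359, 303 and 451 at 2 h, and 162, 255 and 196 at 12 h. The libraries at 0.5 h lay above those at 0 h in this line, but the rise of 0.35 was not called (SE 0.20, adjusted p = 0.194). It was called with no low-count filter (adjusted p = 0.00399) and with only the groups compared (adjusted p = 0.00605). The difference at 2 h in this line, 0.36 (SE 0.19, adjusted p = 0.455), was called with no low-count filter (adjusted p = 0.0147). In MB468 CXCL8 fell by 0.68 at 0.5 h (SE 0.22, adjusted p = 0.0203) and rose 2.16-fold at 2 h (1.11, SE 0.20, adjusted p = 0.0004). The fall at 0.5 h rests on single libraries: without MB468 0 h replicate 2 its adjusted p was 0.109, without 0.5 h replicate 1 it was 0.0820, and without 0.5 h replicate 3 it was 0.0651. The lines differed by 1.03 in the response at 0.5 h (SE 0.29, adjusted p = 0.0734), which missed the threshold here. It passed with DESeq2 on all groups (adjusted p = 0.0231) and with edgeR on only the 4 groups compared (adjusted p = 0.00463). It also passed with no low-count filter (adjusted p = 4.55e-09) and with spike-in scaling (1.28, adjusted p = 5.27e-05).

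CXCL1 (chr4:73869393-73871308, plus strand) was barely detected, although the stretch of its promoter with the kappa-B match is close to those of CXCL2 and CXCL3. It had 0 counts in 20 of the 24 libraries. A count of 0 allows a level of up to 3 counts, or from 0.0853 to 0.256 CPM over these 20 libraries, counting error only. Its 11 reads were 1 in MB468 2 h replicate 3 and 1, 1 and 8 in the MB468 12 h libraries, and no read came from MB468res-R8. The 8 reads have an exact Poisson interval of 3.45 to 15.8 counts at the 95% level. No window of 100 bases of the canonical transcripts of CXCL1, CXCL2 and CXCL3 occurred in an annotated transcript of another gene, so their reads, of the same length, can be told apart.

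CCL20 (chr2:227805739-227817564, plus strand) encodes the ligand of CCR6, which attracts dendritic cells and T cells, and had the widest range of group means among the members tested. In MB468 its normalised counts were 217, 201 and 211 at 0 h, 103, 107 and 104 at 0.5 h, 338, 418 and 473 at 2 h, and 207, 200 and 179 at 12 h. In MB468res-R8 they were 204, 166 and 152 at 0 h, 112, 102 and 76.1 at 0.5 h, 187, 165 and 216 at 2 h, and 6.26, 17.1 and 17.0 at 12 h. At 0 h the lines differed by -0.26 on the log2 scale (SE 0.14, adjusted p = 0.134), which was not called with all libraries and was called without MB468res-R8 0 h replicate 1 (adjusted p = 0.0342). CCL20 fell at 0.5 h in both lines, with log2 differences of -1.002 in MB468 (adjusted p = 1.48e-06) and -0.85 in MB468res-R8 (adjusted p = 3.11e-05). At 2 h CCL20 was 1.96-fold above 0 h in MB468 (0.97, SE 0.14, adjusted p = 9.85e-07), and in MB468res-R8 the difference from 0 h was 0.09 (SE 0.14, adjusted p = 0.889). The 12 h libraries of MB468res-R8 did not overlap with any other group. CCL20 was 13.2-fold lower than at 0 h there (-3.73, SE 0.22, adjusted p = 7.31e-18), while in MB468 the difference was -0.10 (SE 0.14, adjusted p = 0.514). The response differed between the lines by -0.88 at 2 h (SE 0.20, adjusted p = 0.00378) and by -3.62 at 12 h (SE 0.26, adjusted p = 9.8e-15). With spike-in scaling the difference at 2 h was -0.48 and was not called (adjusted p = 0.126).

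IL6 (chr7:22725884-22732002, plus strand) encodes interleukin 6, a cytokine of inflammation and the acute-phase response. In MB468 its normalised counts were 70.9, 60.6 and 40.8 at 0 h, 243, 188 and 202 at 0.5 h, 314, 262 and 305 at 2 h, and 84.3, 88.4 and 76.04 at 12 h. MB468res-R8 had 261, 210 and 201 at 0 h, 881, 637 and 548 at 0.5 h, 261, 278 and 236 at 2 h, and 53.6, 60.4 and 64.2 at 12 h. The libraries of MB468res-R8 at 0 h overlapped with those of MB468 at 0.5 h, and at 2 h the lines overlapped. At 0 h IL6 was 3.82-fold higher in MB468res-R8 (1.93, SE 0.18, adjusted p = 9.59e-11). It rose at 0.5 h 3.60-fold in MB468 (1.85, SE 0.18, adjusted p = 9.09e-10) and 3.06-fold in MB468res-R8 (1.61, SE 0.14, adjusted p = 6.99e-11), and the difference between these rises was -0.24 (SE 0.23, adjusted p = 0.754).

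In its change from 0 h, IL6 differed between the lines at 2 h, when their libraries overlapped in level. It was 4.99-fold above 0 h in MB468 (2.32, SE 0.18, adjusted p = 1.61e-11), whereas in MB468res-R8 it had fallen by 1.41 from 0.5 h (adjusted p = 7.16e-10) to a level 0.20 from that at 0 h (SE 0.15, adjusted p = 0.642). The response at 2 h differed by -2.12 (SE 0.23, adjusted p = 1.09e-07). At 12 h IL6 was 3.81-fold lower than at 0 h in MB468res-R8 (-1.93, SE 0.18, adjusted p = 7.81e-11), and 1.39-fold higher in MB468 (0.48, SE 0.19, adjusted p = 0.0283). The last rise is weak, since leaving out 0 h replicate 2 (adjusted p = 0.0626), 0 h replicate 3 (0.166), 12 h replicate 1 (0.0757) or 12 h replicate 2 (0.0714) ended the call. The kit did not mark strand, and exons of IL6 overlap those of IL6-AS1 and STEAP1B on the opposite strand. STEAP1B had 2 to 29 counts in a library, and IL6-AS1 has no row in the table.

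**Figure D2:**
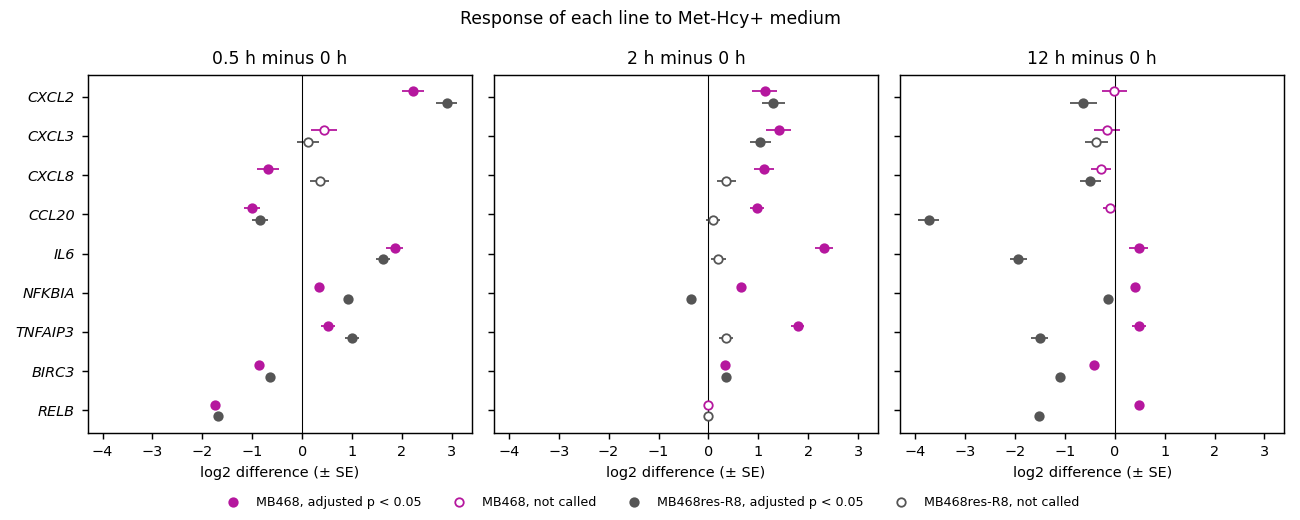
Log2 difference from 0 h (horizontal axis, bars ± SE) of the 9 members tested, at 0.5, 2 and 12 h, in MB468 (magenta) and MB468res-R8 (grey). Filled points passed an adjusted p of 0.05; at 2 h the points for IL6 lie at 2.32 and 0.20, and at 12 h those for CCL20 lie at -0.10 and -3.73.

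NFKBIA (chr14:35401079-35404749, minus strand) encodes IkB-alpha, the inhibitor that holds NF-kB in the cytoplasm and that NF-kB itself induces. It had the highest level per length of the members, 19.4 CPM per kb in MB468 and 15.5 CPM per kb in MB468res-R8 at 0 h. In MB468 its normalised counts were 1552, 1476 and 1471 at 0 h, 1950, 1845 and 1928 at 0.5 h, 2370, 2328 and 2374 at 2 h, and 2065, 1933 and 1978 at 12 h. In MB468res-R8 they were 1105, 1149 and 1326 at 0 h, 2398, 2230 and 2105 at 0.5 h, 900, 940 and 953 at 2 h, and 1147, 1085 and 1021 at 12 h. The groups of MB468 rose in steps to 2 h without overlap between neighbouring times, and in MB468res-R8 the libraries at 2 h lay below all those at 0 h. NFKBIA rose at 0.5 h by 0.35 in MB468 (SE 0.05, adjusted p = 2.32e-06) and by 0.92 in MB468res-R8 (SE 0.06, adjusted p = 3.22e-17). At 2 h it was 0.65 above 0 h in MB468 (SE 0.06, adjusted p = 2.72e-12) and 1.28-fold below it in MB468res-R8 (-0.35, SE 0.06, adjusted p = 5.86e-05).

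NFKBIA was the 1 member whose response was called different between the lines at all 3 times. The difference was 0.57 at 0.5 h (SE 0.08, adjusted p = 2.79e-06), -1.003 at 2 h (SE 0.08, adjusted p = 1.92e-12) and -0.54 at 12 h (SE 0.08, adjusted p = 1.81e-07). At 12 h it was 0.41 above 0 h in MB468 (SE 0.05, adjusted p = 9.16e-09). In MB468res-R8 it was 0.13 below (SE 0.06, adjusted p = 0.0484), a call that the fit with the replicate block did not keep (adjusted p = 0.0518). That call was also lost with DESeq2 (adjusted p = 0.0702), with no low-count filter (0.0719) and with only the groups compared (0.119). Spike-in scaling ended the call of the difference at 12 h (-0.29, adjusted p = 0.209). It also ended those of the rises in MB468, which were 0.13 at 0.5 h (adjusted p = 0.489), 0.23 at 2 h (adjusted p = 0.112) and 0.17 at 12 h (adjusted p = 0.261), and of both falls in MB468res-R8, at 2 h (-0.41, adjusted p = 0.145) and at 12 h (-0.12, adjusted p = 0.487).

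TNFAIP3 (chr6:137867214-137883314, plus strand) encodes A20, a ubiquitin-editing enzyme that stops signalling upstream of the IKK kinase. In MB468 its normalised counts were 577, 576 and 519 at 0 h, 854, 693 and 845 at 0.5 h, 1881, 1825 and 2085 at 2 h, and 899, 718 and 718 at 12 h. Those of MB468res-R8 were 515, 526 and 479 at 0 h, 1277, 950 and 776 at 0.5 h, 667, 661 and 607 at 2 h, and 173, 184 and 179 at 12 h. The 2 h libraries of MB468 were above every other library of the series, and the 12 h libraries of MB468res-R8 were below every other. TNFAIP3 rose 1.42-fold at 0.5 h in MB468 (0.51, SE 0.14, adjusted p = 0.00828) and 1.99-fold in MB468res-R8 (0.99, SE 0.14, adjusted p = 1.28e-05). The rise in MB468 had an adjusted p of 0.0588 without 0.5 h replicate 1, and with spike-in scaling it was 0.30 (adjusted p = 0.106). At 2 h TNFAIP3 was 3.45-fold above 0 h in MB468 (1.79, SE 0.14, adjusted p = 1.06e-08), and in MB468res-R8 the difference was 0.35 (SE 0.14, adjusted p = 0.246). The MB468res-R8 libraries at 2 h all lay above those at 0 h. Their rise was called with no low-count filter (adjusted p = 0.000151) and with only the groups compared (adjusted p = 0.00309). At 12 h it was 1.40-fold higher than at 0 h in MB468 (0.48, adjusted p = 0.00406, and 0.24 with adjusted p = 0.124 under spike-in scaling) and 2.84-fold lower in MB468res-R8 (-1.50, SE 0.17, adjusted p = 2.31e-07). The lines differed in the response by -1.44 at 2 h (SE 0.20, adjusted p = 8.81e-05) and by -1.99 at 12 h (SE 0.22, adjusted p = 2.03e-07). Exons of WAKMAR2 overlap TNFAIP3 on the opposite strand, and WAKMAR2 has no row in the table.

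BIRC3 (chr11:102317484-102339403, plus strand) encodes cIAP2, a ubiquitin ligase that protects cells from death signalling by tumour necrosis factor. Its normalised counts in MB468 were 747, 751 and 662 at 0 h, 395, 420 and 366 at 0.5 h, 831, 917 and 995 at 2 h, and 552, 573 and 509 at 12 h. In MB468res-R8 they were 818, 777 and 769 at 0 h, 575, 488 and 452 at 0.5 h, 931, 1026 and 1082 at 2 h, and 336, 366 and 410 at 12 h. In each line the 4 times did not overlap, with the highest level at 2 h. BIRC3 fell at 0.5 h by 0.87 in MB468 (adjusted p = 8.97e-11) and by 0.64 in MB468res-R8 (adjusted p = 4.89e-08). At 2 h it was 1.27-fold above 0 h in MB468 (0.34, SE 0.08, adjusted p = 0.00218) and 1.28-fold in MB468res-R8 (0.36, SE 0.08, adjusted p = 0.00257). With libraries scaled by their spike-in RNA, the value in MB468 at 2 h turned to -0.083 (adjusted p = 0.604) and that in MB468res-R8 was 0.31 (adjusted p = 0.699). At 12 h it had fallen by 0.41 in MB468 and by 1.09 in MB468res-R8, and this response differed between the lines by -0.68 (SE 0.12, adjusted p = 4.42e-06), or by -0.43 with spike-in scaling (adjusted p = 0.0771). A lncRNA on the opposite strand shares exon sequence with BIRC3, and 0.3983% of the 100-base windows of the BIRC3 transcript also occurred in it.

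RELB (chr19:45001461-45038192, plus strand) encodes an NF-kB subunit of the non-canonical branch and is itself a target of the pathway. In MB468 its normalised counts were 904, 813 and 816 at 0 h, 242, 257 and 262 at 0.5 h, 885, 783 and 848 at 2 h, and 1219, 1197 and 1154 at 12 h. MB468res-R8 had 574, 577 and 587 at 0 h, 175, 174 and 189 at 0.5 h, 597, 555 and 582 at 2 h, and 210, 204 and 195 at 12 h. At 0.5 h all 6 libraries were far below their line's libraries at 0 and 2 h, which overlapped with each other. RELB was 3.35-fold lower at 0.5 h in MB468 (-1.75, SE 0.07, adjusted p = 1.13e-22) and 3.23-fold lower in MB468res-R8 (-1.69, SE 0.08, adjusted p = 3.64e-21). The difference between these falls was 0.05 (SE 0.11, adjusted p = 0.901). At 2 h RELB stood 0.01 below 0 h in both lines, with SE of 0.06 and 0.07. With spike-in scaling the value in MB468 at 2 h was -0.44 (adjusted p = 0.00557). At 12 h it had risen 1.41-fold in MB468 (0.49, SE 0.06, adjusted p = 1.85e-09) and was 2.85-fold lower in MB468res-R8 (-1.51, SE 0.07, adjusted p = 1.82e-20). With spike-in scaling the rise in MB468 at 12 h was 0.26 and was not called (adjusted p = 0.0986). The response at 12 h differed by -2.00 (SE 0.10, adjusted p = 1.19e-20).

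Before the switch, 4 of the 9 members tested differed between the lines, 2 higher and 2 lower in MB468res-R8, where 26.4% of all genes were higher and 27.1% lower. IL6 and CXCL3 were higher, NFKBIA was lower by 0.34 (SE 0.06, adjusted p = 2.7e-06), and RELB was lower by 0.55 (SE 0.06, adjusted p = 1.77e-09). With spike-in scaling 2 were higher and 4 lower, since CCL20 (-0.57, adjusted p = 0.00314) and TNFAIP3 (-0.45, adjusted p = 0.00449) were called too, where 7.76% of all genes were higher and 44.1% lower. At 12 h, 6 members were lower and 1 was higher in MB468res-R8, against 39.2% and 33.9% of all genes. CCL20 was 14.7-fold lower than in MB468 (-3.88, SE 0.21, adjusted p = 2.25e-19), RELB 5.85-fold lower (-2.55, SE 0.07, adjusted p = 1.91e-29) and TNFAIP3 4.37-fold lower (-2.13, SE 0.16, adjusted p = 3.5e-10). NFKBIA, BIRC3 and IL6 were lower by 0.88, 0.55 and 0.47, and CXCL3 was higher by 0.81. IL6, the member with the largest excess in MB468res-R8 at 0 h, was thus on the other side at 12 h, with adjusted p = 0.0285, a call lost when MB468 12 h replicate 1 (adjusted p = 0.0744) or 2 (0.0706), or MB468res-R8 12 h replicate 1 (0.148) or 2 (0.0573), was left out.

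The test of the difference in response separated the times. At 0.5 h only NFKBIA was called among the 9, where 1.20% of all genes were called with a higher and 1.70% with a lower response in MB468res-R8. At 2 h, 4 members (IL6, TNFAIP3, NFKBIA and CCL20) had a lower response, against 2.88% of all genes with a lower and 2.19% with a higher one. At 12 h, 6 had a lower response (CCL20, IL6, RELB, TNFAIP3, BIRC3 and NFKBIA) and none a higher one, against 30.3% and 26.2% of all genes. With spike-in scaling 3 members had a higher response at 0.5 h (CXCL8, NFKBIA and TNFAIP3), 3 a lower one at 2 h and 4 a lower one at 12 h, and all genes were called mostly higher, 0.543% against 0.142% lower at 0.5 h, 5.87% against 0.441% at 2 h and 27.5% against 11.8% at 12 h. CXCL2 and CXCL3 were called at none of the 3 times, with differences of 0.17 (SE 0.34) and -0.37 (SE 0.33) at 2 h and of -0.62 (SE 0.37) and -0.22 (SE 0.35) at 12 h. Without MB468 0 h replicate 1, the difference of CXCL2 at 12 h was -0.91 and was called (adjusted p = 0.0460).

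**Figure D3:**
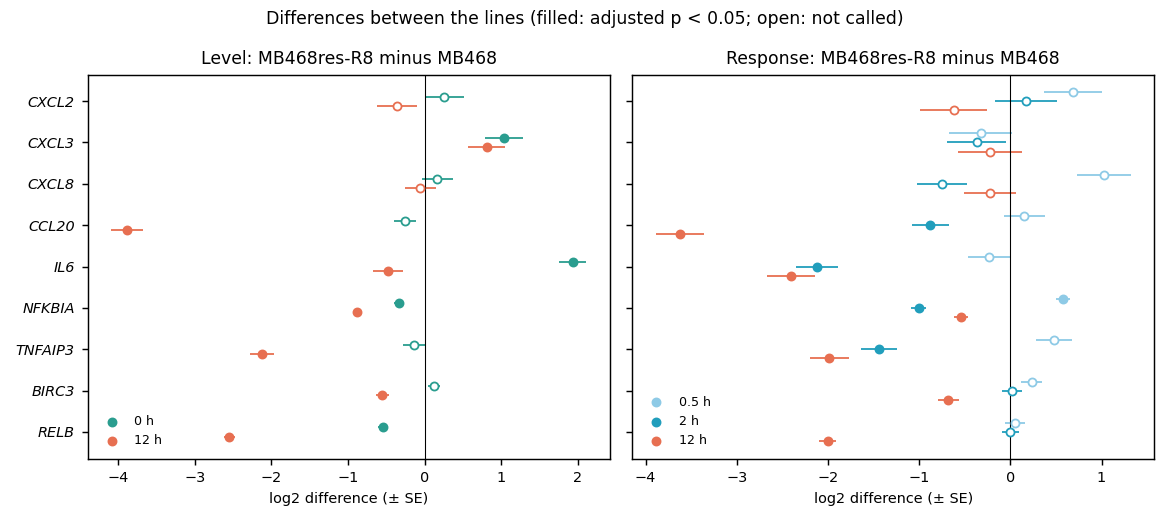
Differences between the lines on the log2 scale (horizontal axis, bars ± SE) for the 9 members tested. The left panel shows the level in MB468res-R8 minus that in MB468 at 0 and 12 h, the right panel the same subtraction for the responses at 0.5, 2 and 12 h, and filled points passed an adjusted p of 0.05; IL6 lies at 1.93 at 0 h and at -0.47 at 12 h.

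Between 0.5 and 2 h all 9 members moved in MB468, 8 up and only CXCL2 down, against 16.3% and 16.5% of all genes. In MB468res-R8, 4 rose (CXCL3, CCL20, BIRC3 and RELB) and 4 fell (CXCL2, IL6, NFKBIA and TNFAIP3), against 17.4% and 17.9%. From 2 to 12 h, 8 members fell and 1 rose in each line, against 35.1% lower and 34.6% higher of all genes in MB468 and 31.8% and 30.7% in MB468res-R8. The riser was RELB in MB468, by 0.50 (SE 0.06, adjusted p = 2.69e-09), and NFKBIA in MB468res-R8, by 0.22 (SE 0.06, adjusted p = 0.00121). The rise of IL6 from 0.5 to 2 h in MB468, 0.47 (SE 0.15, adjusted p = 0.0175), lost its call without 0.5 h replicate 2 (0.0864), 0.5 h replicate 3 (0.0504), 2 h replicate 1 (0.0768) or 2 h replicate 3 (0.0646). With spike-in scaling it was 0.25 (adjusted p = 0.257), the rise of NFKBIA over the same interval in MB468 was 0.099 (adjusted p = 0.582), and that of NFKBIA from 2 to 12 h in MB468res-R8 was 0.28 (adjusted p = 0.0700). In MB468 the split of all genes under that scaling was 4.59% higher and 20.5% lower from 0.5 to 2 h and 36.9% and 19.5% from 2 to 12 h, and in MB468res-R8 it was 5.73% and 10.4% from 0.5 to 2 h.

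Of the receptors of the members' products, the chemokine receptors had few or no reads in these cells. CXCR1 had at most 4 counts in a library, CCR6 at most 9, and ACKR1, a scavenging chemokine receptor, had none. CXCR2 had 1 to 43 counts, and its normalised level was 19.7 ± 5.97 in MB468 and 1.92 ± 0.854 in MB468res-R8 at 12 h (log2 difference -3.26, SE 0.60). The MB468 libraries at 12 h helped this gene pass the filter on low counts, so no p-value is given for that difference. Both chains of the IL6 receptor were present. IL6ST, the signalling chain gp130, was lowest in MB468 at 0 h (1885 ± 98.3) and highest in the same line at 12 h (3223 ± 129), and rose at 12 h by 0.77 in MB468 and by 0.37 in MB468res-R8.

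IL6R, the chain that binds IL6, moved against IL6 at 0.5 h. In MB468 it was 337 ± 24.03 at 0 h, 77.2 ± 12.5 at 0.5 h, 437 ± 53.4 at 2 h and 139 ± 13.8 at 12 h. In MB468res-R8 it was 569 ± 99.9, 104 ± 14.2, 790 ± 45.2 and 223 ± 10.9 at the same times. The fall at 0.5 h was 4.26-fold in MB468 (-2.09, SE 0.14, adjusted p = 1.46e-15) and 5.46-fold in MB468res-R8 (-2.45, SE 0.12, adjusted p = 6.59e-19). The responses of IL6R were not called different between the lines at any of the 3 times, with differences of -0.36 (SE 0.19), 0.09 (SE 0.15) and -0.07 (SE 0.16).

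A list of 85 other genes of the pathway, 68 of which passed the filter on low counts, gave a setting for the members. The list holds subunits, inhibitors, kinases, receptors and adaptors, ligands and targets. The ligands TNF, IL1A, IL1B and LTB did not pass the filter, nor did the targets CXCL5, CXCL6, CXCL10, CCL5, CSF2, CSF3, BCL2A1, PTGS2 and MMP9 or the receptor CD40. At 0.5 h, 8 list genes were higher and 28 lower in MB468, and 12 and 27 in MB468res-R8, where the shares of all genes were 17.6% and 16.4%, and 17.4% and 16.3%. The 4 other NF-kB subunits, NFKB1, NFKB2, RELA and REL, all fell in both lines, NFKB2 by 0.55 in MB468 (SE 0.05) and by 0.60 in MB468res-R8 (SE 0.05). At 2 h, 20 were higher and 5 lower in MB468, and 4 and 3 in MB468res-R8, against 8.88% and 7.47%, and 2.52% and 1.85%, of all genes. At 12 h, 32 were higher and 20 lower in MB468, and 17 and 33 in MB468res-R8, against 36.1% and 34.7%, and 30.2% and 31.1%, of all genes. The list's median log2 difference was -0.16 at 0.5 h, 0.03 at 2 h and 0.15 at 12 h in MB468, and -0.16, 0.03 and -0.17 in MB468res-R8, with medians of all genes between -0.02 and 0.01.

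**Figure D4:**
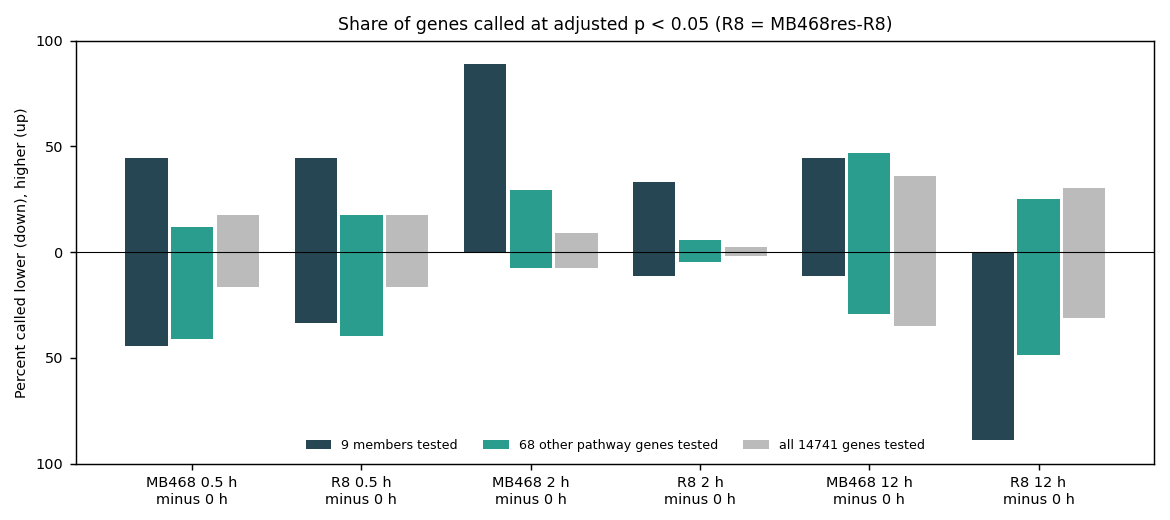
Percent of genes called higher (upward bars) and lower (downward bars) than at 0 h at an adjusted p of 0.05, in 6 comparisons, for the 9 members tested, the 68 other pathway genes tested and all 14741 genes. R8 stands for MB468res-R8; at 12 h the member bars point down in MB468res-R8, where 8 of 9 were lower, and mostly up in MB468, where 4 were higher and 1 lower.

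Among the list genes with the largest changes, MAP3K14, the kinase NIK that drives the non-canonical branch of RELB, fell with RELB at 0.5 h. It went from 692 ± 14.8 to 249.5 ± 21.8 in MB468 (-1.45, SE 0.09, adjusted p = 4.32e-17) and from 1027 ± 63.7 to 351 ± 40.7 in MB468res-R8 (-1.54, SE 0.08, adjusted p = 5.92e-19). ZC3H12A, the ribonuclease regnase-1 that degrades IL6 and other cytokine transcripts, rose 2.93-fold at 0.5 h in MB468res-R8 (1.55, SE 0.09, adjusted p = 7.06e-17), and its response there was 0.77 larger than in MB468 (SE 0.12, adjusted p = 4.47e-05). CSF1, which encodes a macrophage growth factor, and ICAM1, an adhesion molecule, also had a larger response in MB468res-R8 at 0.5 h, by 0.87 (SE 0.10) and 0.64 (SE 0.09). CCL2, which attracts monocytes, fell by 1.28 in MB468 at 0.5 h (SE 0.12, adjusted p = 1.47e-09).

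At 2 h the list genes GADD45B, a stress-induced regulator of growth arrest and survival, LIF, a cytokine of the IL6 family that signals through gp130, and PLAU, the urokinase protease, rose most in MB468. GADD45B rose 2.63-fold there (1.40, SE 0.05, adjusted p = 1.21e-21), and the response in MB468res-R8 was lower by 1.63 (SE 0.08, adjusted p = 2.95e-18). LIF rose 2.14-fold in MB468 at 2 h (1.10, SE 0.14, adjusted p = 1.41e-05) with a difference between the lines of -1.15 (SE 0.20, adjusted p = 0.00169). For IER3, an early-response survival gene of few counts, this difference was -1.55 (SE 0.37, adjusted p = 0.00508). In MB468res-R8 at 2 h the largest changes were NFKBIZ, which encodes an atypical nuclear IkB protein, at -0.91 (SE 0.12, adjusted p = 2.89e-06), PLAU at 0.89 (SE 0.10) and the membrane-bound chemokine CX3CL1 at 0.78 (SE 0.09).

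At 12 h LIF fell in both lines, 4.63-fold in MB468 (-2.21, SE 0.15, adjusted p = 3.48e-10) and 32.8-fold in MB468res-R8 (-5.03, SE 0.25, adjusted p = 7.81e-12), where it went from 1677 ± 181 to 52.3 ± 15.3. GADD45B went the other way in the lines, as RELB did: it was 3.91-fold higher than at 0 h in MB468 and its response in MB468res-R8 was lower by 3.25 (SE 0.08, adjusted p = 1.23e-28). PLAU differed in its 12 h response by -1.53 (SE 0.15, adjusted p = 8.06e-08). CCL2 fell by 2.11 in MB468, and IER3 and CX3CL1 fell by 1.58 and 1.47 in MB468res-R8. Over the list, 34 genes had a lower and 9 a higher response at 12 h in MB468res-R8, against 30.3% and 26.2% of all genes. The serum amyloid genes SAA1 and SAA2 and the iron-binding protein gene LCN2 differed most between the lines at 0 h, all lower in MB468res-R8, by 4.03, 2.33 and 1.48. SAA1 and SAA2 are near-identical copies that counting could split unevenly.

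Genes with the time course most like that of each member were found by the root mean square difference of the 8 centred group means of log2 CPM, with no test. For CXCL2 the closest was SIK1, a kinase gene induced by cAMP signalling (0.32), followed by SGK1 (0.52) and BHLHE40 (0.53). For IL6 they were the immediate-early transcription factor genes KLF4 (0.40), ATF3 (0.57) and KLF6 (0.57), and for CCL20 the genes MAFF (0.45), SLC34A2 (0.47) and DLX2 (0.54). TNFAIP3 was closest to PIM1 (0.25), a survival kinase gene, EDN1 (0.38), which encodes endothelin 1, and RASGEF1B (0.40). NFKBIA was closest to PARD6B (0.13), TGIF1 (0.15) and FBXL20 (0.20), BIRC3 to ABL2 (0.16), MBP (0.17) and MPZL3 (0.17), and RELB to RBM24 (0.24), ZMYND15 (0.24) and HTR1D (0.35). CXCL3 was closest to THEM5 (0.30), ISG20 (0.32) and HIST1H2BH (0.34), and CXCL8 to HIST1H2BC (0.20), C4orf36 (0.27) and EPHA2 (0.31), of which the histone genes have near-identical copies. None of the 3 closest genes of a member was another member.

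Per length of exon, the order of the members at 0 h in MB468 was NFKBIA (19.4 CPM per kb), RELB (12.4), CCL20 (5.78), CXCL8 (4.24), BIRC3 (4.23), TNFAIP3 (3.802), CXCL2 (0.759), IL6 (0.584) and CXCL3 (0.462), with CXCL1 at 0. In MB468res-R8 it was NFKBIA (15.5), RELB (8.50), CXCL8 (4.82), CCL20 (4.79), BIRC3 (4.63), TNFAIP3 (3.46), IL6 (2.28), CXCL3 (0.949), CXCL2 (0.885) and CXCL1 at 0. On these lengths CCL20, CXCL8, BIRC3 and TNFAIP3 lay close together in both lines. The order of all members depends on the exon lengths, which join all annotated exons of a gene. The canonical transcript is much shorter for IL6 (1127 against 4321 bases), CXCL3 (1075 against 2219) and CCL20 (834 against 1594). For BIRC3 it is little shorter (6877 against 7484). Levels per canonical transcript were not computed and could stand in another order. The genes that rose at 0.5 h in both lines span 2157 (CXCL2), 6119 (IL6), 3671 (NFKBIA) and 16101 (TNFAIP3) bases of genome. Those that fell in both span 11826 (CCL20), 21920 (BIRC3) and 36732 (RELB) bases. CXCL3, not called at 0.5 h, spans 2219 bases, and CXCL8, lower at 0.5 h in MB468 alone, spans 3198. These spans cover all annotated transcripts, and that of CCL20 begins upstream of the start site used for its promoter. The CCL20 span runs from 227805739 to 227817564 on chromosome 2, and its promoter stretch lies at 227813743 to 227813792. From that start site CCL20 is therefore much shorter than 11826 bases. A link between span and direction was not tested.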

How the data were processed

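RNA was measured in 24 libraries. Per the labels and the study's methods, the authors sequenced poly(A) RNA with an unstranded kit and single-end reads, aligned to GRCh38/hg38 joined with spike-in sequences with HISAT2 2.1.0, and counted reads per gene with featureCounts (Subread 1.5.3). The table of raw counts they deposited was used, with 26645 gene entries; its 92 spike-ins served as an alternative scaling. The authors' normalised table and their table of DESeq2 results (fold changes and p-values of their own comparison) were not used.

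Genes were filtered with filterByExpr (edgeR 4.0.16, R 4.3.3; 14741 of them kept), scaled by TMM and fitted with 1 mean for each of the 8 groups by glmQLFit (robust) and glmQLFTest, with Benjamini-Hochberg adjustment over all genes tested. On simulated counts for MB468 at 0.5 h, 87.9% of 199 changed genes among 14474 were recovered and 3.85% of calls were false. The simulation changed few genes, in both directions, so the premise of TMM held by design. In the libraries themselves 17.6% of genes were called higher and 16.4% lower at 0.5 h. The simulated rates therefore do not cover error from the scaling. Alternatives were DESeq2 1.42.0, other scalings, filters, thresholds and sample sets, a replicate block and leaving out each library. The members, the pathway list and the tests were chosen with earlier results of these data known. All members were named, with the receptors of their products, the 3 called list genes of largest change per comparison (mean of at least 1 CPM), and the 3 genes closest in time course to each member that reached 1 CPM and spanned at least 1 log2. Replicate numbers did not pair the libraries: deviations from group means correlated by -0.0199 on average over 84 pairs with the same number and by 0.0105 over 168 pairs with different numbers.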

Additional observations from a re-analysis of the deposited data

Results flagged for a closer look

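The response to Met-Hcy+ medium differed between the lines, by a test of the difference itself, in 11 member and time pairs, given here on the log2 scale with the response of MB468 subtracted from that of MB468res-R8. NFKBIA differed by 0.57 at 0.5 h, -1.003 at 2 h and -0.54 at 12 h. IL6 differed by -2.12 at 2 h and -2.41 at 12 h, TNFAIP3 by -1.44 and -1.99, and CCL20 by -0.88 and -3.62. RELB differed by -2.00 and BIRC3 by -0.68 at 12 h. Of these 11, NFKBIA at 0.5 h alone had the larger response in MB468res-R8. With libraries scaled by spike-in totals, 3 of them were no longer called: CCL20 at 2 h (-0.48, adjusted p = 0.126), NFKBIA at 12 h (-0.29, adjusted p = 0.209) and BIRC3 at 12 h (-0.43, adjusted p = 0.0771). With 3 libraries in a group, single libraries were not tested for standing apart from their group.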

How the results depend on the processing

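Over 2037 recomputed member values, 1952 kept their side of the threshold and, where called, their direction, 62 lost the call, 22 gained one, and 1 called value changed sign. In 43 others, none of them called as reported, the sign changed. The called one was BIRC3 in MB468 at 2 h with libraries scaled by spike-in totals (-0.083, adjusted p = 0.604). The spike-in scaling moved the median of all genes by -0.20, -0.42 and -0.23 in MB468 at 0.5, 2 and 12 h and by -0.31 between the lines at 0 h. Under it, members called numbered 2 in MB468 at 12 h (0 higher and 2 lower, where IL6, NFKBIA, TNFAIP3 and RELB lost their calls), 2 in MB468res-R8 at 2 h and 3 for the difference in the 0.5 h response. Under the same scaling, MB468 at 0.5 h had 2 members higher and 4 lower, and at 2 h 6 higher and 1 lower (RELB). List genes called, of 68 tested and not split by direction, numbered 44 in MB468 at 2 h and 19 and 3 in MB468res-R8 at 0.5 and 2 h. From 0.5 to 2 h in MB468res-R8 they numbered 18. Of all 14741 genes, 9511, 2023, 180 and 2380 were called in the same comparisons, in that order. In MB468 at 2 h, 62.9% of all genes were called lower.

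At an adjusted p of 0.01, 5 members were called in MB468res-R8 at 12 h, where 7610 of all 14741 genes were. At that threshold 6 list genes were called for the difference in the 2 h response. For the difference in the 0.5 h response, 3 members and 10 list genes were called with no filter, and 2 members with DESeq2 or with only the groups compared. Leaving out 1 library gave 5 to 7 members for MB468res-R8 at 12 h (5 without its 12 h replicate 3; CXCL2, CXCL8 and NFKBIA were the calls lost), and for the difference in the 0.5 h response 1 to 2 members and 4 to 9 list genes (9 without MB468res-R8 0.5 h replicate 3, where TNFAIP3 passed too, adjusted p = 0.0138; CXCL8 passed without MB468 0 h replicate 3, 0.0433, or 0.5 h replicate 2, 0.0335). The replicate block changed 1 member call, NFKBIA in MB468res-R8 at 12 h (-0.13, adjusted p = 0.0518), and left 7 members called there. The cause was not tested. CXCL1 had too few counts to be tested, and some CXCL2 and CXCL3 values rest on few counts. Whether greater depth would detect CXCL1 was not tested.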
